A study of Mus musculus with 12 samples.

Results

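Tissue inhibitors of metalloproteinases (TIMPs) and matrix-cleaving proteases were followed by RNA sequencing in lung and liver of mice 6 h after CLP or sham surgery. The 7 genes described are the inhibitors Timp1, Timp2 and Timp3, the ADAMTS proteases Adamts1, Adamts4 and Adamts9, and the membrane-bound metalloproteinase gene Mmp14. They were taken by name, and each symbol matched 1 of the 55414 Ensembl identifiers in the count table. All mice were labelled WT C57BL/6J. The groups were lung after CLP, lung after sham surgery, liver after CLP and liver after sham surgery, each with 3 libraries of whole tissue. In this field CLP means cecal ligation and puncture, a sepsis model in which gut contents leak into the abdomen. Sham-operated mice were the controls, and the sources used here give neither age and sex nor any drug used around surgery.

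TIMPs are small secreted proteins that occupy the catalytic zinc of metalloproteinases. Timp1 inhibits most secreted matrix metalloproteinases and is induced by cytokines in many cell types. Timp2 is made steadily by many mesenchymal cells, and with the product of Mmp14 it also takes part in activating the gelatinase Mmp2. Timp3 is bound to the extracellular matrix and also inhibits ADAM17, which releases tumour necrosis factor from the cell surface, and the aggrecan-cleaving ADAMTS proteases. Adamts1, Adamts4 and Adamts9 cut large proteoglycans such as versican and aggrecan. Mmp14 encodes a protease of the cell membrane that cleaves collagen and activates other metalloproteinases. In liver and lung these genes are known from stellate cells, fibroblasts, vascular cells and macrophages.

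Total counts ran from 10559895 to 15854117 per library. Whether the libraries of a group are from separate mice is not in the labels, so p-values measure the spread between these libraries, which may be technical. The tissue labels fit their markers. The hepatocyte list (10 genes, Alb among them) summed to 84.8 to 114 CPM (counts scaled to library size) in CLP lung, 43.3 to 163 in sham lung, 105773 to 127728 in CLP liver and 84238 to 108530 in sham liver. Alveolar epithelial markers (11 genes, Sftpc among them) summed to 24518 to 28847 CPM in CLP lung, 29913 to 31967 in sham lung, 63.1 to 128 in CLP liver and 55.3 to 67.2 in sham liver. In bulk tissue a lower level can come from fewer cells of a type or from less RNA per cell, and these cannot be told apart here.

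Upstream sequence was taken for 6 of the 7 genes from RefSeq on build GRCm38.p6, an older build than the mm39 named for the counts. The 250 bases before the start site are printed for Timp1, Adamts1 and Adamts9, the 3 of these 6 genes with the largest fold changes after CLP in liver. Capitals mark matches to the motifs searched. The Timp1 window is chrX:20869916-20870165 on the plus strand, the Adamts1 window chr16:85803114-85803363 on the minus strand, and the Adamts9 window chr6:92943535-92943784 on the minus strand.
Timp1: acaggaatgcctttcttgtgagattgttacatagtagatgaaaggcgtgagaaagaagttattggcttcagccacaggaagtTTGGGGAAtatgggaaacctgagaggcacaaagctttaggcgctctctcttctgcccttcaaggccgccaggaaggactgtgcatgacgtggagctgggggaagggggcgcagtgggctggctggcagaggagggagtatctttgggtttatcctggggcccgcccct
Adamts1: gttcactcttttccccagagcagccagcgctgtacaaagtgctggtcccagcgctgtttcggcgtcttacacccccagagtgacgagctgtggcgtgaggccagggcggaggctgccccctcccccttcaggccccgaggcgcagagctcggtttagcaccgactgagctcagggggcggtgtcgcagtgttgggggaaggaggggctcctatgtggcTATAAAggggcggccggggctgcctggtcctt
Adamts9: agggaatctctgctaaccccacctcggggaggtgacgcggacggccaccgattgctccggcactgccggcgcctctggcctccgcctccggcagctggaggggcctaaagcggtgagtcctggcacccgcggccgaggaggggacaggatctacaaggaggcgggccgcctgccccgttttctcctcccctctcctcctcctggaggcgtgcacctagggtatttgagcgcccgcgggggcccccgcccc

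The windows were searched on both strands for 6 motifs. The Timp1 window held 1 match, the C/EBP letters TTNNGNAA at positions -168 to -161 from the start site. Among 32536 distinct windows of the same length, 36.8% held those letters. The Adamts1 window held the TATA box letters TATAAA at positions -32 to -27. Those letters were in 12.3% of all windows, counted at any position and on either strand. No motif matched in the Adamts9 window, and none of the matches overlapped another. The AP-1 letters TGANTCA, found in 6.73% of all windows, were in none of the 3 printed. The same held for the STAT letters TTCNNNGAA (7.04% of all windows), for the CRE palindrome TGACGTCA (1.56%) and for the NF-kB consensus (3.92%). A match is a description of letters, not of binding. The Adamts9 window was rich in G and C, at 71.2% of bases, the Adamts1 window had 65.6% and the Timp1 window 54.4%.

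After CLP, transcripts of 6 members rose and that of 1 fell in lung, and 5 rose and 1 fell in liver. Adamts4 had the largest fold change in both organs, followed by Timp1 and then Adamts9. Timp3 rose less, and Timp2 fell in both organs. A gene was called when its p from edgeR (quasi-likelihood test), adjusted over all genes tested, was below 0.05. In lung 23.9% of 15441 genes were called higher and 24.9% lower, and in liver 21.4% of 12392 were higher and 21% lower. The balance of calls over all genes depended on scaling, with 49.0% of calls higher in lung as fitted, 38.0% with library totals alone and 37.2% with upper-quartile scaling, and in liver 50.4%, 30.8% and 40.3% under the same settings. The median log2 fold change of the 7 genes was 1.40 in lung and 2.30 in liver, against -0.03 and -0.01 over all genes tested. All 7 passed the low-count filter in both organs, but Timp1 and Adamts4 in liver and Adamts4 in lung passed through their CLP libraries, since fewer than 3 sham libraries reached the cutoff. No member's CLP and sham libraries overlapped in either organ. Without overlap, CLP was higher for 28.6% and lower for 31.1% of all genes tested in lung, and higher for 28.1% and lower for 27.6% in liver. The members were chosen with these responses known, so their count and median are a description of the chosen genes.

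**Figure D1:**
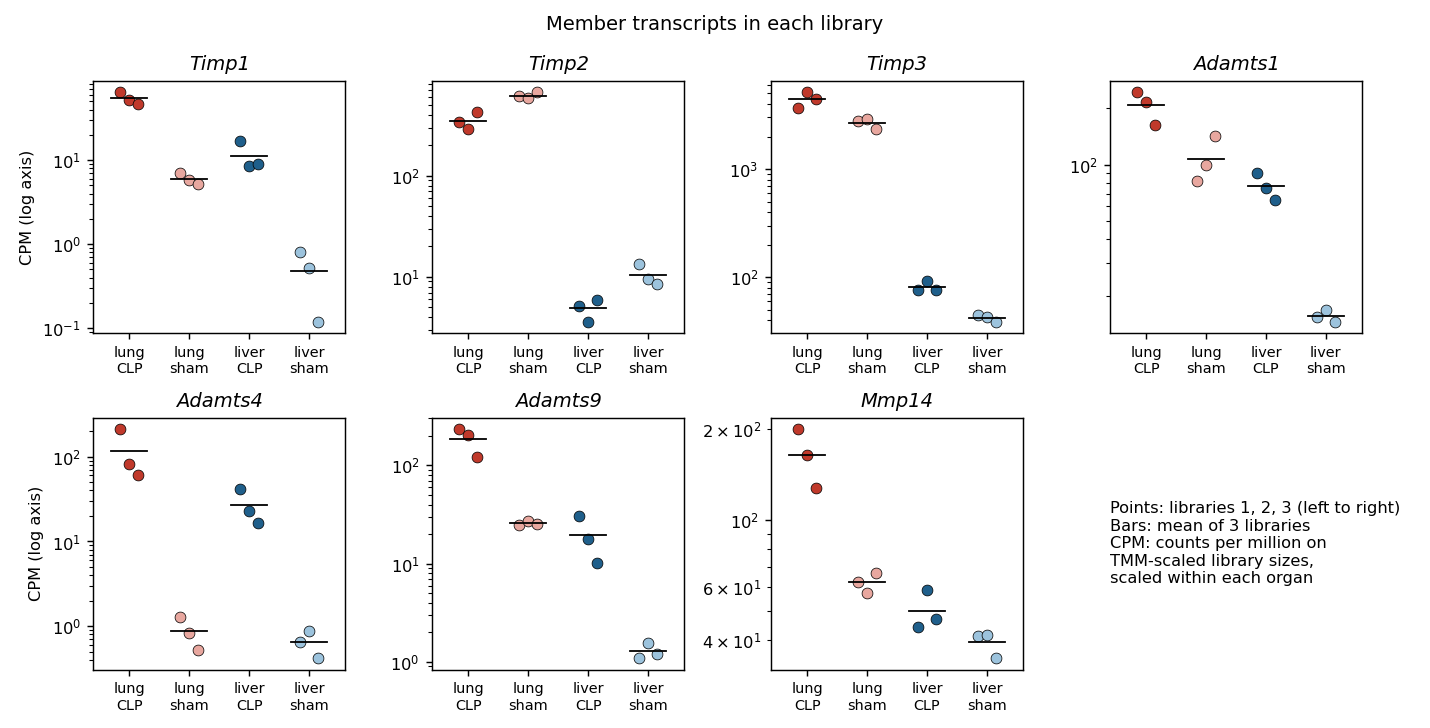
CPM of the 7 genes in each library on a log axis, by organ and surgery, with points for libraries 1, 2 and 3 from left to right and a bar at the group mean (n = 3). CLP and sham libraries do not overlap for any of the 7 genes in either organ, and Timp2 is the gene whose CLP libraries lie below its sham libraries.

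Among the inhibitors, Timp1 (ENSMUSG00000001131) had 64.0, 52.2 and 47.2 CPM in CLP lung, against 6.99, 5.76 and 5.23 CPM in sham lung. Every CLP lung library thus lay far above every sham lung library. The log2 fold change in lung was 3.19 ± 0.16 (standard error, edgeR adjusted p = 1.57e-05). In CLP liver Timp1 had 16.7, 8.43 and 8.93 CPM, against 0.800, 0.519 and 0.120 CPM in sham liver. The sham liver libraries held 11, 7 and 2 counts, so the baseline was close to the limit of detection, and the last of them was below the 3 counts taken as a floor. Pooled counts gave a liver ratio of 25.5 (95% exact interval 16.3 to 42.2, for counting error only). The fitted log2 fold change in liver was 4.60 ± 0.50 (edgeR adjusted p = 0.000397), and it was 5.21 without sham liver replicate 1.

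Timp2 (ENSMUSG00000017466) went the other way. It had 337, 287 and 429 CPM in CLP lung, against 615, 585 and 667 CPM in sham lung. Its highest CLP lung library lay below its lowest sham lung library. The log2 fold change was -0.83 ± 0.15 (edgeR adjusted p = 0.00237). CLP liver held 5.15, 3.61 and 5.85 CPM of Timp2, against 13.3, 9.56 and 8.50 CPM in sham liver. Liver groups did not overlap either, at a log2 fold change of -1.11 ± 0.24 (edgeR adjusted p = 0.00625). The fall was called under each of the 14 alternatives in each organ.

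Timp3 (ENSMUSG00000020044), the matrix-bound inhibitor, was the most abundant of the 7 in lung per length of exon. It had 3687, 5101 and 4436 CPM in CLP lung, against 2790, 2879 and 2365 CPM in sham lung. Its log2 fold change in lung was 0.72 ± 0.15 (edgeR adjusted p = 0.00479). CLP liver had 77.2, 91.9 and 76.9 CPM, against 44.5, 43.2 and 39.1 CPM in sham liver. In liver the log2 fold change was 0.96 ± 0.11 (edgeR adjusted p = 0.000303). Replicate 2 was the highest CLP library for Timp3 in both organs, whereas replicate 1 was highest for Timp1.

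The mixture of TIMP transcripts was also compared, as shares of their summed CPM per kb. Per length of exon, Timp1 made up 7.52 to 11.8% of the Timp1, Timp2 and Timp3 transcripts in CLP lung and 1.26 to 1.55% in sham lung. In liver it made up 43.7 to 63.5% after CLP and 1.89 to 9.21% after sham surgery. Timp2 made up 9.71 to 15.5% in CLP lung and 29.4 to 36.6% in sham lung. Its liver share was 4.27 to 7.15% after CLP and 29.4 to 34.9% after sham surgery. No share of Timp1 or Timp2 overlapped between CLP and sham libraries of an organ. These shares rest on the union of exons over all transcripts of an older annotation, and describe RNA, not protein.

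**Figure D2:**
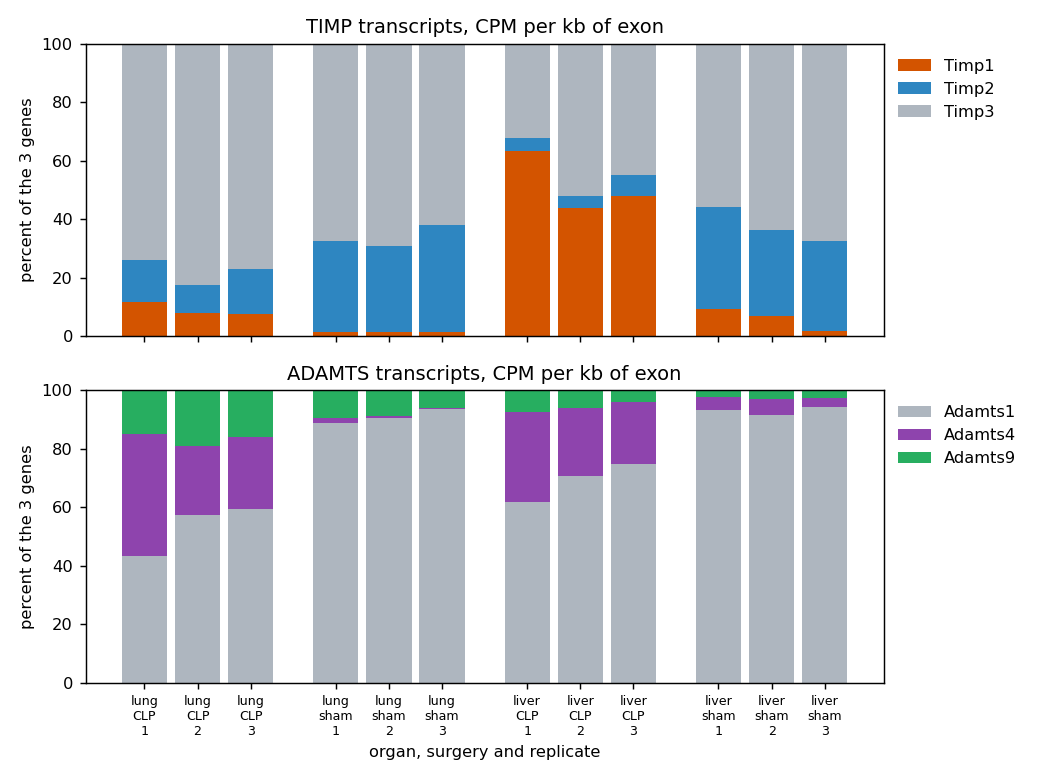
Share of each TIMP gene (upper panel) and each ADAMTS gene (lower panel) in the summed CPM per kb of exon of its 3 genes, with 1 bar per library, in percent. Timp1 takes 43.7 to 63.5% in CLP liver against at most 9.21% in sham liver, and Adamts4 takes 23.7 to 41.7% in CLP lung against at most 1.55% in sham lung.

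Of the proteases, Adamts4 (ENSMUSG00000006403), an aggrecan-cleaving enzyme, had the largest increases. It had 211, 80.8 and 61.3 CPM in CLP lung, against 1.30, 0.823 and 0.523 CPM in sham lung. The lowest CLP lung library was still far above the highest sham lung library, although the CLP libraries differed widely among themselves. Pooled counts of 4384 in CLP lung and 34 in sham lung gave a lung ratio of 139 (95% exact interval 99.4 to 201, for counting error only). The fitted log2 fold change was 7.06 ± 0.73 (edgeR adjusted p = 0.000649), rank 15 from the top among 15441 genes, and it was 6.33 without CLP lung replicate 1. CLP liver had 41.2, 22.6 and 16.4 CPM, against 0.655, 0.889 and 0.419 CPM in sham liver. In liver its log2 fold change was 5.37 ± 0.47 (edgeR adjusted p = 0.000216), rank 41 from the top among 12392 genes. Both fold changes rest on few sham counts of Adamts4, at 16, 11 and 7 in lung and 9, 12 and 7 in liver.

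Adamts9 (ENSMUSG00000030022), a versican-cleaving enzyme also known for a role in secretion, had 234, 202 and 122 CPM in CLP lung, against 24.7, 27.2 and 25.5 CPM in sham lung. Its log2 fold change was 2.85 ± 0.23 (edgeR adjusted p = 0.000149). Sham lung libraries lay close together, and the CLP lung libraries spread over a wider range above them. CLP liver had 30.5, 17.7 and 10.1 CPM, against 1.09, 1.56 and 1.20 CPM in sham liver. In liver the log2 fold change was 3.93 ± 0.46 (edgeR adjusted p = 0.000638).

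Adamts1 (ENSMUSG00000022893), the family member first known as an inflammation-induced gene, had 242, 216 and 162 CPM in CLP lung, against 82.3, 99.2 and 142 CPM in sham lung. The groups came close, with the lowest CLP lung library just above the highest sham lung library. Its lung log2 fold change was 0.94 ± 0.22 (edgeR adjusted p = 0.0110), and the call ended without a low-count filter (edgeR adjusted p = 0.0853). CLP liver had 90.8, 75.3 and 64.9 CPM, against 15.5, 16.8 and 14.6 CPM in sham liver. The liver groups were well apart, at a log2 fold change of 2.30 ± 0.14 (edgeR adjusted p = 2.38e-05). Among the 3 ADAMTS genes followed here, Adamts1 had the largest share per length in all 12 libraries. In lung this share was 43.5 to 59.4% after CLP and 89.0 to 93.7% after sham surgery. In liver it was 61.8 to 75.0% after CLP and 91.6 to 94.3% after sham surgery. Other ADAMTS proteases were not part of these shares.

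Mmp14 (ENSMUSG00000000957) had 200.1, 165 and 127 CPM in CLP lung, against 62.2, 57.0 and 66.7 CPM in sham lung. Each CLP lung library lay above each sham lung library, with a log2 fold change of 1.40 ± 0.16 (edgeR adjusted p = 0.000375). CLP liver had 44.2, 58.5 and 46.9 CPM, against 41.3, 41.6 and 34.7 CPM in sham liver. The liver libraries did not overlap, but the log2 fold change of 0.35 ± 0.13 missed the threshold (edgeR adjusted p = 0.0607). It passed without a low-count filter (edgeR adjusted p = 0.0253) and without CLP liver replicate 1 (0.0415).

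**Figure D3:**
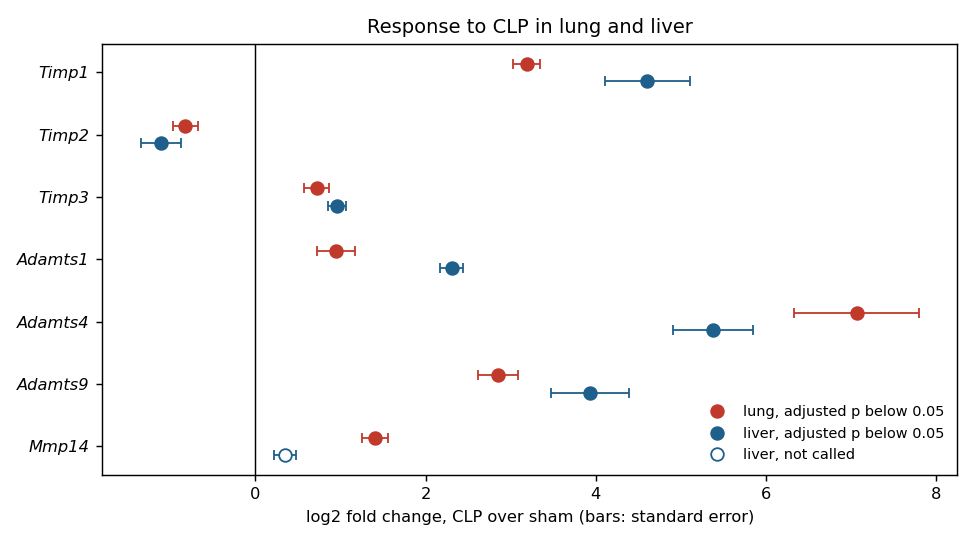
Log2 fold change of CLP over sham for each gene in lung and liver, with bars of 1 standard error (n = 3 libraries per group). Filled points passed an adjusted p of 0.05, and the open point is Mmp14 in liver at 0.35.

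A model with all 12 libraries tested whether the CLP response in lung differed from that in liver, as a difference of log2 fold changes. This called 1 member higher and 1 lower, where 8.89% of 16111 genes were called higher and 8.84% lower. Mmp14 responded more in lung, with a difference of 1.03 ± 0.22 on the log2 scale (edgeR adjusted p = 0.00643). Adamts1 responded less in lung, with a difference of -1.39 ± 0.29 (edgeR adjusted p = 0.00517). Both differences were called under all 19 alternatives. Timp1 (-1.47 ± 0.56, edgeR adjusted p = 0.0920), Adamts9 (-1.12 ± 0.57, 0.214), Adamts4 (1.65 ± 1.20, 0.401), Timp3 (-0.27 ± 0.22, 0.460) and Timp2 (0.25 ± 0.28, 0.598) were not called, although DESeq2 called Timp1 (adjusted p = 0.0259). A miss of the threshold at this number of libraries does not show equal responses.

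Levels in sham tissue were compared between organs with the same model. In sham tissue 5 members were higher in lung than in liver and 1 was lower (edgeR adjusted p below 0.05), where 44.4% of 16111 genes were called higher and 36.5% lower. The log2 difference of sham lung over sham liver was 4.63 ± 0.18 for Timp3, 4.54 ± 0.21 for Timp2, 2.98 ± 0.45 for Adamts9, 2.33 ± 0.47 for Timp1 and 1.43 ± 0.21 for Adamts1. Each of these 5 was called under all 19 alternatives, with Timp1 at 1.74 without sham liver replicate 3. The sign for Mmp14 depended on scaling, at -0.70 in the scaling used here (trimmed mean of M values) and 0.62 with library totals alone. Adamts4 was not called (-0.90 ± 1.10, edgeR adjusted p = 0.462) and also changed sign with library totals alone, at 0.40. Library totals moved the median of all genes in this comparison to 1.50, against 0.19 in the fit reported.

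Within each group the genes were ordered by mean CPM per kb of exon. Exon length was the union of exons over all annotated transcripts, so the comparison of levels between genes is rough. In CLP lung the order was Timp3 (541 ± 86.9, SD, n = 3), Timp2 (90.1 ± 18.4), Timp1 (61.4 ± 9.70), Adamts1 (39.0 ± 7.71), Mmp14 (27.5 ± 6.10), Adamts4 (24.5 ± 16.9) and Adamts9 (12.4 ± 3.81). From Adamts1 downward, libraries of neighbours in that order overlapped. In sham lung it was Timp3 (329 ± 33.7), Timp2 (160 ± 10.6), Adamts1 (20.3 ± 5.77), Mmp14 (10.4 ± 0.815), Timp1 (6.75 ± 1.02), Adamts9 (1.72 ± 0.0859) and Adamts4 (0.183 ± 0.0816), with no overlap between neighbours. CLP liver had the order Adamts1 (14.5 ± 2.46), Timp1 (12.8 ± 5.22), Timp3 (10.1 ± 1.05), Mmp14 (8.37 ± 1.27), Adamts4 (5.56 ± 2.68), Adamts9 (1.29 ± 0.688) and Timp2 (1.25 ± 0.294). There all neighbours overlapped except Adamts4 and Adamts9. In sham liver it was Mmp14 (6.58 ± 0.652), Timp3 (5.19 ± 0.348), Adamts1 (2.95 ± 0.203), Timp2 (2.68 ± 0.649), Timp1 (0.540 ± 0.385), Adamts4 (0.136 ± 0.0489) and Adamts9 (0.0852 ± 0.0162). In that group Adamts1 overlapped Timp2, Timp1 overlapped Adamts4, and Adamts4 overlapped Adamts9. Timp2 thus followed Timp3 in both lung groups, and was last in CLP liver.

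Other cell types and overlapping genes were measured beside these results. Alveolar markers were higher in CLP than in sham liver for 7 of 8 tested, and their median stood at 0.0793 to 0.126% of the lung level in CLP liver and 0.0114 to 0.0458% in sham liver. At that median share lung RNA would carry 3.37 to 5.35 CPM of Timp3 in the CLP liver libraries, and at most 0.426 CPM of any other member. These values are on library totals. Measured Timp3, scaled within the organ, was 76.9 to 91.9 CPM in CLP liver and 39.1 to 44.5 in sham liver. Markers with a share above the median would give more, and the part of lung RNA in the liver results was not tested. Timp3 shares 1733 exon bases with Syn3 on the other strand, which had 25 to 41 counts in CLP lung and 30 to 49 in sham lung. Syn3 was not called in lung (edgeR adjusted p = 0.796). Adamts9 shares 1381 exon bases with A730049H05Rik on the other strand. A730049H05Rik had 70 to 297 counts in CLP lung and 27 to 32 in sham lung, and at most 3 in any liver library. It was called higher in CLP lung, at a log2 fold change of 2.50 ± 0.49 (edgeR adjusted p = 0.00512). How strand was treated in the counting is not stated in the sources used here, and the part of these genes in the results was not tested.

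Neutrophil markers rose in 11 of 11 cases in lung and 9 of 9 in liver. Their sum was 7133 to 10212 CPM in CLP lung and 1003 to 1136 in sham lung, and 172 to 247 in CLP liver and 18.0 to 20.2 in sham liver, where Camp was at 0. Macrophage markers rose in 5 of 10 cases in lung and fell in 1 (Mertk), and rose in 2 (Cd68 and Marco) and fell in 5 in liver, where their summed levels overlapped at 237 to 331 CPM after CLP and 279 to 326 after sham surgery. Summed macrophage levels in lung were 504 to 598 CPM after CLP and 454 to 494 after sham surgery. Fibroblast and stellate cell markers rose in 2 of 12 cases in lung (Pdgfra and Hgf) and fell in 2 (Pdgfrb and Reln). The call of Pdgfrb was lost in 9 of 14 alternatives and that of Reln in 3 of 14. In liver these markers rose in 1 (Ngfr) and fell in 1 of 13 (Col1a2, a call lost without CLP liver replicate 2, sham liver replicate 1 or sham liver replicate 3). Their sums overlapped in both organs, at 1864 to 2225 CPM in CLP lung and 1761 to 2171 in sham lung, and 240.0 to 253 in CLP liver and 226 to 274 in sham liver.

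Smooth muscle and pericyte markers rose in 5 of 7 cases in liver, among them Mcam (1.43 ± 0.15) and Kcnj8 (2.34 ± 0.40, or 3.06 without sham liver replicate 1), or in 2 with library totals alone, and in lung 2 of 9 rose and 2 fell. They summed to 1172 to 1512 CPM in CLP lung and 1039 to 1265 in sham lung, and to 81.3 to 103 in CLP liver and 43.3 to 51.1 in sham liver. Endothelial markers fell in 7 of 10 cases in lung, including the VEGF receptor Kdr (-1.28 ± 0.10), and fell in 5 and rose in 1 (Cdh5) of 10 in liver. The endothelial sum was 4510 to 4686 CPM in CLP lung and 6025 to 6400 in sham lung, and 240.4 to 249 in CLP liver and 318 to 340 in sham liver. Mesothelial markers fell in 4 of 8 cases in lung, with none tested in liver, and summed to 180.0 to 232 CPM in CLP lung and 268 to 327 in sham lung, and to at most 1.77 in CLP liver and 2.39 in sham liver, with Lrrn4 and Muc16 at 0 in CLP liver. Hepatocyte markers rose in 3 and fell in 3 of 10 cases in liver, and rose in 1 of 9 in lung (Tat, a call lost in 4 of 14 alternatives). Alveolar markers in lung rose in 1 (Napsa, a call lost in 9 of 14 alternatives) and fell in 3 of 11 cases. The part of these cell types in the members' results was not tested.

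Among other protease inhibitors, Reck, a membrane-anchored inhibitor of metalloproteinases, fell to 64.5 ± 11.9 CPM in CLP lung, against 134 ± 4.02 CPM in sham lung (SD, n = 3 each), with a log2 fold change of -1.06 ± 0.12 (edgeR adjusted p = 0.000365). In liver its log2 fold change was -0.59 ± 0.18 (edgeR adjusted p = 0.0312), a call lost in 7 of 14 alternatives, among them without any 1 CLP liver library and without sham liver replicate 2 or 3. The protease trap A2m rose in both organs, but its lung call (1.22 ± 0.38) was lost in 4 of 14 alternatives, among them without CLP lung replicate 1 and without sham lung replicate 2 or 3. In liver it had 845 ± 28.5 CPM after CLP and 48.2 ± 40.7 CPM after sham surgery, at a log2 fold change of 4.13 ± 0.80 (edgeR adjusted p = 0.00782), and 4.95 without sham liver replicate 2. Of this list 2 rose and 1 fell among 6 tested in lung, and 1 rose and 1 fell among 7 tested in liver. Timp4, the remaining TIMP gene, was looked up after its values were seen. It was at 0 in every liver library and was not called in lung.

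Of the other ADAMTS proteases, some rose and some fell. In lung 5 of 12 tested rose and 2 fell, and in liver 1 of 8 rose and 1 fell. Adamts15, which also cuts versican, rose in both organs, at log2 fold changes of 1.36 ± 0.23 in lung and 2.12 ± 0.25 in liver. Adamts8 rose in lung (1.43 ± 0.15) and shares exon bases with an antisense gene. Adamts10, which binds fibrillin microfibrils, fell in lung (-1.04 ± 0.16) and liver (-1.60 ± 0.21). Adamts5, the other main aggrecan-cleaving enzyme, fell to 12.2 ± 2.15 CPM in CLP lung, against 19.3 ± 1.41 CPM in sham lung, where Adamts4 rose. Each of these changes had an edgeR adjusted p of at most 0.00620 with Benjamini-Hochberg adjustment. Of the ADAMTS-like proteins, which lack a protease domain, 1 of 6 rose and 2 fell in lung, and 2 of 3 fell in liver. Adamtsl5 fell in lung (-1.13 ± 0.19), and Adamtsl2 rose in lung (0.40 ± 0.10) and fell in liver (-1.11 ± 0.26). The lung call of Adamtsl2 was lost in 2 of 14 alternatives, without sham lung replicate 1 and in the fit of all 12 libraries. The fall of Adamtsl3 in lung was lost in 10 of 14 alternatives, and that of Adamtsl4 in liver in 8 of 14. Each of these 2 calls was lost without any 1 library of its organ.

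Other matrix metalloproteinases rose in 7 of 14 cases and fell in 2 in lung, and rose in 6 of 9 and fell in 2 in liver. Mmp8, the neutrophil collagenase, rose by 2.27 ± 0.14 on the log2 scale in lung and by 3.11 ± 0.29 in liver. Mmp9, a gelatinase also stored in neutrophils, rose by 2.34 ± 0.20 in lung. Mmp8 and Mmp9 are also on the neutrophil list. Mmp12, the macrophage elastase, rose by 4.71 ± 0.50 in liver, and it shares exon bases with Mmp1b. In sham liver Mmp12 had 0.357 ± 0.231 CPM, below the low-count cutoff of 0.752 CPM, so it was tested through its CLP libraries. Mmp11 (-2.09 ± 0.17) and Mmp28 (-2.48 ± 0.34), both of which share exon bases with genes on the other strand, fell in lung, and Mmp15, a relative of Mmp14 in the cell membrane, fell in liver (-1.55 ± 0.32). Each had an edgeR adjusted p of at most 0.00595 with Benjamini-Hochberg adjustment. Mmp2, the substrate of the Mmp14 and Timp2 complex, was looked up after its values were seen. It rose in lung to 95.7 ± 10.3 CPM after CLP, against 68.4 ± 7.88 CPM after sham surgery (edgeR adjusted p = 0.00739), and in liver it had 1.07 ± 0.146 CPM after CLP and 1.57 ± 0.503 CPM after sham surgery and was not called (edgeR adjusted p = 0.198).

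**Figure D4:**
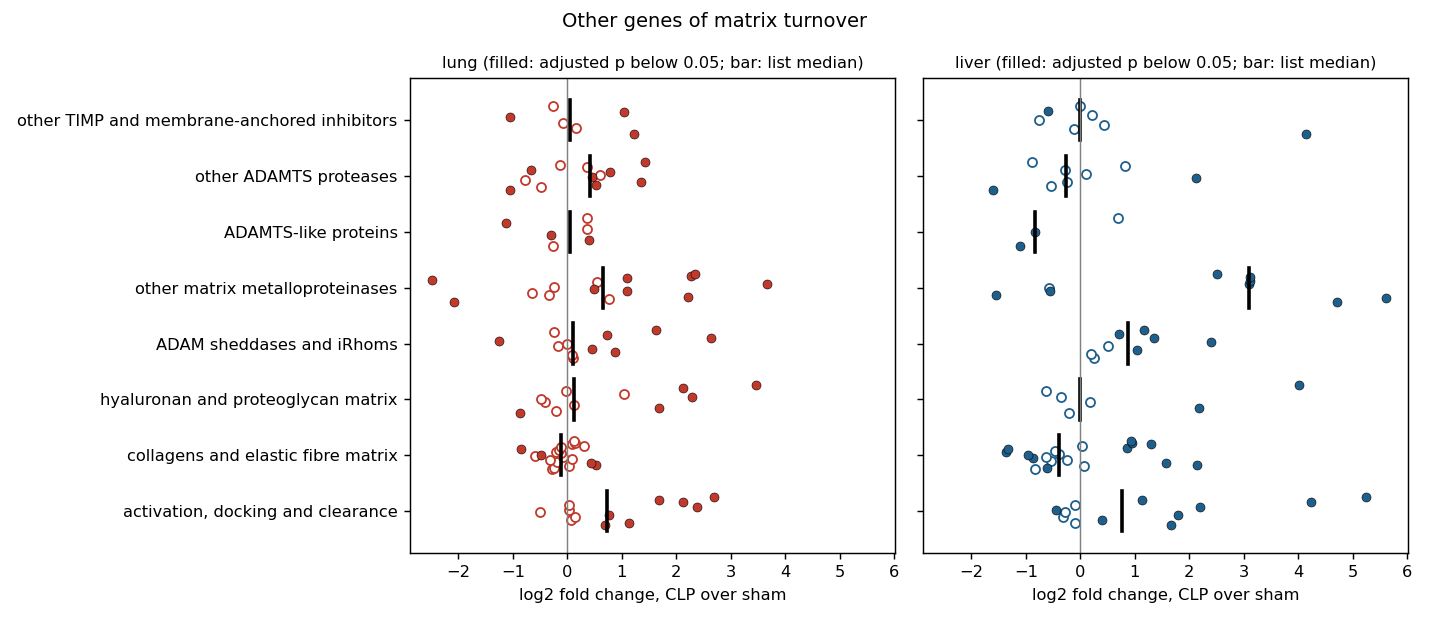
Log2 fold change of CLP over sham for every tested gene of 8 lists of matrix turnover, in lung (left) and liver (right), with filled points for an adjusted p below 0.05 and a black bar at the list median. The medians of other matrix metalloproteinases are 0.66 in lung and 3.10 in liver, and those of collagens and elastic fibre matrix are -0.12 and -0.39.

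ADAM sheddases release membrane proteins, and several are inhibited by TIMPs. Of the ADAM sheddases and their iRhom partners, 5 of 11 rose and 1 fell (Adam33) in lung, and 5 of 8 rose in liver. Rhbdf2, the iRhom that carries ADAM17 to the surface of immune cells, rose by 1.62 ± 0.15 in lung, and Adam17 itself rose by 1.05 ± 0.13 in liver. Adam17 shares exon bases with Iah1 on the other strand. Adam9 rose in liver to 248 ± 40.5 CPM, against 97.3 ± 9.51 CPM after sham surgery. With library totals alone or upper-quartile scaling, 3 of this list fell in lung.

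The gene of versican, a substrate of these proteases, rose in both organs. Vcan had 165 ± 34.0 CPM in CLP lung and 14.9 ± 3.94 CPM in sham lung (SD, n = 3 each), at a log2 fold change of 3.47 ± 0.23 (edgeR adjusted p = 7.35e-05). In liver it had 4.60 ± 0.507 CPM after CLP and 0.289 ± 0.203 CPM after sham surgery, at 4.01 ± 0.43 (edgeR adjusted p = 0.000254). This sham liver level was near the 3-count floor and below the low-count cutoff of 0.752 CPM, so Vcan was tested through its CLP libraries. Cd44, the hyaluronan receptor, rose by 1.67 ± 0.17 in lung and 2.19 ± 0.13 in liver. Of the hyaluronan and proteoglycan list 4 of 11 rose and 1 fell (Bcan) in lung, and 2 of 6 rose in liver. Of collagens and elastic fibre genes 2 of 20 rose and 2 fell in lung, and 6 of 19 rose and 5 fell in liver. With library totals alone the lower counts were 6 in lung and 8 in liver. The basement membrane collagens Col4a1 and Col4a2 were the genes of this list that rose in both organs, but the lung call of Col4a2 was lost in 3 of 14 alternatives (without sham lung replicate 2, without sham lung replicate 3 and in the fit of all 12 libraries). Col4a1 had 371 ± 92.4 CPM in CLP liver and 84.0 ± 10.8 CPM in sham liver.

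Genes for activation, docking and clearance rose in 7 of 12 cases in each organ, and 1 (Pcsk7) fell in liver. Sdc4, a syndecan that holds ADAMTS proteases at the cell surface, rose by 1.68 ± 0.17 in lung and 1.13 ± 0.13 in liver. Plat, tissue plasminogen activator, rose by 2.38 ± 0.25 in lung, and Plaur, the urokinase receptor, rose by 4.24 ± 0.37 in liver. Each of these had an edgeR adjusted p of at most 0.000371 with Benjamini-Hochberg adjustment. Plaur had 0.747 ± 0.241 CPM in sham liver, near the low-count cutoff of 0.752 CPM. Lists were chosen with earlier results of these data known, and their counts stand against the shares of all genes called in each organ.

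For each member the 3 genes with the most similar pattern were found by Pearson's r of log2 CPM over the 12 libraries, each set relative to the sham mean of its organ. They were taken from genes tested in both organs, 11171 compared with each member. Since CLP and sham libraries form separate clusters, the values are a description with no p. Timp1 was most like Icam1 (r = 0.991), Mvp (0.990) and Ist1 (0.986). Timp2 was most like Wdr11 (0.977), Zfp362 (0.970) and Cc2d2a (0.970), and Timp3 most like Ltf (0.967), Celsr3 (0.964) and Bst1 (0.961). Adamts1 was most like Rab35 (0.987), Enc1 (0.986) and Tfe3 (0.986). Adamts4 stood nearest Mefv (0.994), Eif3c (0.993) and Sbno2 (0.991), and Adamts9 nearest Ywhaz (0.994), Klf7 (0.991) and Hif1a (0.990). Mmp14 stood nearest Gnai3 (0.984), Cpne2 (0.983) and Plk3 (0.981). Likeness is of shape and not of size, as Timp1 and Ist1 show at log2 fold changes of 3.19 and 0.49 in lung.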

How the data were processed

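RNA of 12 libraries was measured, 3 for each organ and surgery. The authors deposited whole-number counts per Ensembl gene, not normalized. Libraries were made with a stranded kit, per the labels' protocols. Per the submitters' processing notes, the build was mm39, and featureCounts, DESeq2, FastQC and STAR 2.7.10a are named without a role. Annotation release and strand setting are not given here by any source.

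Symbols were matched for 52081 of 55414 identifiers. The test was edgeR 4.0.16 (R 4.3.3), after its low-count filter by group (minimum count 10, minimum total 15) and scaling by the trimmed mean of M values, with robust quasi-likelihood fits. Two-sided p-values were adjusted over all genes tested (Benjamini-Hochberg), with 0.05 as threshold. The organs were fitted apart, with 6 libraries each, and their difference was fitted over all 12. The standard error is the fold change divided by the square root of F, an approximation. CPM are on library sizes scaled within each organ, except the lung share of liver libraries, which is on library totals. Fits with DESeq2 1.42.0, limma 3.58.1 and other settings were alternatives. No replicate pair agreed within sampling noise, at a chi-square of 5.28 to 37.6 per degree of freedom.

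The members and gene lists were chosen with earlier results of these data known. Beside the 7 members, the genes named are, per list and organ, those with the lowest p among called rises and falls (up to 2 each way), and the 3 genes most like each member. Some genes of this rule are counted and not described, and others appear only as the members behind a small count. Exon lengths and overlaps came from GENCODE M21 on an older build and give no positions. One overlap of exons is not reported here.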

Additional observations from a re-analysis of the deposited data

Results flagged for a closer look

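The CLP response of Mmp14 differed between lung and liver in the test of the difference itself, at 1.03 on the log2 scale (edgeR adjusted p = 0.00643), with log2 fold changes of 1.40 in lung and 0.35 in liver. For Adamts1 the difference in response was -1.39 (edgeR adjusted p = 0.00517), with log2 fold changes of 0.94 in lung and 2.30 in liver. Across their alternatives the Mmp14 difference ran from 0.86 to 1.22 and the Adamts1 difference from -1.55 to -1.14. For both genes every CLP library lay above every sham library of its organ, although the liver change of Mmp14 was not called.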

How the results depend on the processing

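Each member kept its direction in CLP against sham under all 14 alternatives in each organ, and 1 called member lost its call under 1 of them (lung Adamts1 without a low-count filter). Members called higher ranged from 5 to 6 in lung and in liver, and 1 was lower throughout. In liver, library totals alone gave 1689 higher genes of all tested and shifted the median gene to -0.21, and upper-quartile scaling gave 2122 higher and 3144 lower at a median of -0.11. In lung, these scalings shifted the median to -0.13 and -0.14. For sham lung against sham liver, library totals alone gave 11983 higher and 2401 lower genes and 0 lower members, with Adamts4 at 0.40 and Mmp14 at 0.62. For the difference in response, DESeq2 called 2 members lower, and library totals alone gave 1861 higher and 965 lower genes (65.9% of calls higher, against 50.1%). Among similar genes, Gnai3 in liver went to -0.00336 with library totals alone. Further calls behind the list counts were also lost under some of the 14 alternatives. These included Mmp19 in liver (lost in 6), and Kcnj8 (6), Efemp1 (4) and Tfpi2 (3) in lung.

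Replicate numbers were tried as a block. Within an organ the block was the number, and in comparisons between organs it was surgery and number together. Same-numbered libraries deviated together at correlations of 0.01 to 0.10 between CLP and sham within an organ, of 0.05 to 0.14 between CLP lung and CLP liver, and of -0.01 to 0.07 between sham lung and sham liver. The labels do not tie the numbers to mice, so the numbers were not taken as pairs in the main fits. Each CLP lung library correlated best with the CLP liver library of its own number. Each CLP liver library likewise correlated best with the sham liver library of its own number, which comes from another surgery. Whether any numbers share a mouse cannot be told from these values. The replicate block called 2 members higher and 3 lower in the difference in response (adding Adamts4, Timp1 and Adamts9), called Mmp14 in liver (0.0430), and called 2 lower in sham lung against sham liver, 3344 higher and 3526 lower genes in lung, and 2649 and 2596 in liver. Leaving out 1 library left 1 member higher and 1 lower in the difference in response. Counts near the 3-count floor limit Timp1 in sham liver. Low counts also limit Adamts4, at 7 to 12 in sham liver and 7 to 16 in sham lung.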
